A study of Mus musculus with 62 samples.

Results

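The Rab GTPases are the largest branch of the Ras superfamily of small GTPases. The family was taken here as every counted mouse gene whose symbol is Rab followed by a number and at most a letter and a further digit, so that effectors and regulators such as Rab3gap1 or Rab11fip2 were left out. The rule gave 43 members among the 11121 genes counted. The GENCODE annotation holds 59 genes with such symbols, and the other 16, among them Rab5a, Rab27a, Rab29 and Rab32, were not analysed here.

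A Rab protein switches between a GTP-bound form that sits on a membrane and recruits effectors, and a GDP-bound form that is held in the cytosol by a GDP dissociation inhibitor. Exchange factors load GTP and GTPase-activating proteins end the active state, and each Rab marks its own compartment, so that the family acts as an address system for vesicle traffic. In neurons Rab3 proteins ride on synaptic vesicles, Rab6 proteins serve Golgi traffic, Rab5 and its relatives mark early endosomes, Rab11 and Rab4 proteins mark recycling endosomes that return receptors to the surface, and Rab7 marks late endosomes.

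The libraries came from male wild-type C57BL/6j mice aged 15 weeks. Unstressed control mice (CTR) were compared with mice exposed to multimodal chronic restraint stress (mCRS), a paradigm of daily tube restraint with varied light, noise, motion or odour, in the prefrontal cortex (PFC, 15 CTR and 15 mCRS libraries) and in the nucleus accumbens (NAc, 16 CTR and 16 mCRS libraries). Both groups went through behavioural tests before tissue was taken. The paper places tissue collection some days after the last stress session, so the stress comparisons describe that later time. RNA was counted at the 3' end of transcripts by bulk RNA barcoding and sequencing (BRB-seq), in which barcoded samples are pooled early. Which PFC and NAc libraries came from the same mouse is not stated in the sources used here, so libraries were taken as independent.

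The totals lay between 945286 and 4857359 counts per library. Markers of cortical excitatory neurons summed to between 1001 and 2088 CPM (counts scaled to a common library total) in the PFC libraries and to between 48.2 and 873 in the NAc libraries. NAc mCRS library 8 had the 873 CPM, against a group median of 206, and libraries 15 and 3 of that group had 639 and 532. For 12 markers of striatal projection neurons the sums were 478 to 1665 CPM in the PFC and 723 to 10387 CPM in the NAc. NAc CTR library 7 had the 723 CPM, the next lowest NAc library having 3392, and it also held 2554 CPM of the hypothalamic markers counted, 2 of the 6 in the list. NAc mCRS library 10 held 25515 CPM of the 4 choroid plexus markers counted of 7, against a group median of 272. PFC CTR library 5 held an outlying Rab31 count. The region calls of Rab genes are given with and without NAc CTR library 7, NAc mCRS library 10 and PFC CTR library 5. Those of cell type markers and of Rab regulators are given with all libraries only.

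The 43 members held 933756 counts, 0.592% of all counts, and 23 of them had a count in every library. Of 2666 member values 144 were 0, which is 5.4%, against 12.9% of the values of all genes. Rab6a (13.3% of the Rab counts), Rab3a (12.2%), Rab6b (12.2%), Rab2a (6.97%) and Rab14 (5.36%) together gave 50.1% of the counts of the family. These shares are read shares at the 3' end and depend on how well each 3' end was captured. Rab13 and Rab3d were the most thinly counted, with 870 and 1213 counts in all and no count in 35 and 27 of the 62 libraries. The spread between libraries was wider for thinly counted members, with an SD of log2(CPM + 1) over all libraries of 0.33 for Rab3a and 2.35 for Rab30.

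Rab6a, a Golgi Rab that drives retrograde and exocytic carriers along microtubules, was higher in the PFC than in the NAc (ENSMUSG00000030704, chromosome 7, 100607410 to 100641268, plus strand, GRCm38). In CTR mice its level was lowest at 541, in the middle at 996 and highest at 1197 CPM over the 15 PFC libraries, and 341, 586 and 859 CPM over the 16 NAc libraries. No NAc library lay above the PFC median, 11 of the 15 PFC libraries lay above every NAc library, and the ranges overlapped. The difference NAc minus PFC was -0.81 on the log2 scale (SE 0.13, 95% interval -1.07 to -0.55, edgeR quasi-likelihood test, Benjamini-Hochberg adjusted p = 6.48e-06). In bulk tissue fewer cells of a type and less RNA per cell cannot be told apart.

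The same difference was measured in the separate mCRS libraries. Rab6a ran from 736 through a median of 924 to 1574 CPM in the PFC and from 366 through 675 to 848 CPM in the NAc. All 15 PFC libraries lay above the NAc median, and no NAc library reached the PFC median. The difference was -0.75 (SE 0.13, 95% interval -1.01 to -0.49, adjusted p = 2.17e-05). Leaving out each library in turn kept the adjusted p below 0.05 in all 31 fits in both CTR and mCRS mice, with fold changes of -0.86 to -0.77 and of -0.80 to -0.67. Without NAc CTR library 7 the CTR difference was -0.84, as it was without PFC CTR library 5, and without NAc mCRS library 10 the mCRS difference was -0.75.

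Cell type markers moved with region as well. In CTR mice 8 of 8 cortical excitatory markers were lower in the NAc, and 6 of them passed the test. All 12 striatal projection markers were higher and passed, and 9 of 9 oligodendrocyte markers were higher, 5 of them past the test. Of 6 interneuron markers 2 were called higher and 2 lower. Of 3 choroid plexus markers tested 1 was called lower, and 2 of 2 hypothalamic markers were called higher. None of 6 astrocyte, 8 microglial and 5 endothelial markers passed the test. Oligodendrocyte markers summed to 1511 to 6211 CPM in PFC CTR and to 5531 to 8958 CPM in NAc CTR libraries. The part of these markers in the Rab differences was not tested.

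**Figure D1:**
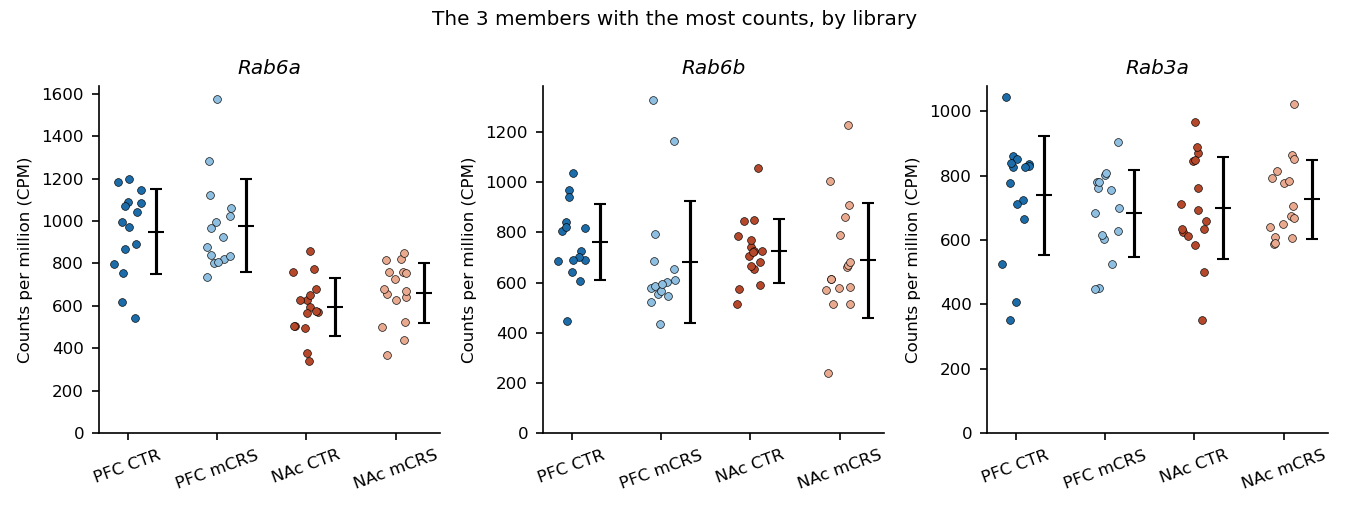
CPM (vertical axis, linear, from 0) of Rab6a, Rab6b and Rab3a in every library (points) of the 4 groups on the horizontal axis, with the mean and SD of each group as the black bar beside the points. Rab6a lies lower in both NAc groups than in both PFC groups, while the ranges of Rab6b and Rab3a overlap broadly.

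Rab6b, the brain-enriched paralog of Rab6a, did not pass the test in either comparison (ENSMUSG00000032549, chromosome 9, 103111787 to 103185276, plus strand). Its level in CTR mice was 447, 726 and 1035 CPM (lowest, median and highest) in the PFC and 514, 723 and 1058 CPM in the NAc, and in mCRS mice 436, 595 and 1329 CPM in the PFC and 242, 639 and 1228 CPM in the NAc. The groups lay over each other. The NAc minus PFC difference was -0.19 in CTR mice (95% interval -0.43 to 0.04, adjusted p = 0.499) and -0.16 in mCRS mice (95% interval -0.47 to 0.16, adjusted p = 0.769). Without NAc mCRS library 8, which had the 1228 CPM, the mCRS difference was -0.26 (SE 0.15, adjusted p = 0.494).

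The ratio of Rab6a to Rab6b counts within a library does not depend on library size. For CTR mice its median was 1.33 in PFC libraries and 0.845 in NAc libraries, and for mCRS mice 1.49 and 0.946. In CTR mice Rab6a had more counts than Rab6b in 11 of 15 PFC but 3 of 16 NAc libraries, and in mCRS mice in 13 of 15 and 7 of 16. The log2 ratio was lower in the NAc by -0.62 in CTR mice (SE 0.15, two-sided permutation test with 100000 resamples, p = 0.00036, adjusted p = 0.0158 over 44 tests of 11 paralog pairs in 4 comparisons) and by -0.57 in mCRS mice (SE 0.18, permutation p = 0.00412, adjusted p = 0.0702). These pairs were chosen after the values had been seen, and the ratio uses the same Rab6a counts as the test above. It was the only one of the 44 tests below 0.05 after adjustment. The next were Rab11a to Rab11b between regions in mCRS mice, with -1.10 (permutation p = 0.00496, adjusted p = 0.0702), and Rab33a to Rab33b between regions in CTR mice, with -2.80 (permutation p = 0.00638, adjusted p = 0.0702).

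Because the pair differs in this pattern, their promoters are shown, each as 250 bases before to 50 bases after the RefSeq start (GRCm38.p6), 5' to 3' on the gene's strand, with matches to the searched motifs in capitals. The Rab6a window is chr7:100607336-100607635 and the Rab6b window chr9:103111824-103112123, both on the plus strand. The GENCODE genes start elsewhere, Rab6a at 100607410, within its window, and Rab6b at 103111787, before its window. The windows are thus not wholly upstream of the GENCODE starts.
Rab6a: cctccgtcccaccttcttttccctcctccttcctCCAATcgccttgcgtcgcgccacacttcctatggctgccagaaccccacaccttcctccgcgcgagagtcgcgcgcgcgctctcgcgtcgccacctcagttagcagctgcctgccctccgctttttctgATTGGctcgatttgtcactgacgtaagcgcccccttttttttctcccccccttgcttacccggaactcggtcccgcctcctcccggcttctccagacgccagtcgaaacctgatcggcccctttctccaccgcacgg
Rab6b: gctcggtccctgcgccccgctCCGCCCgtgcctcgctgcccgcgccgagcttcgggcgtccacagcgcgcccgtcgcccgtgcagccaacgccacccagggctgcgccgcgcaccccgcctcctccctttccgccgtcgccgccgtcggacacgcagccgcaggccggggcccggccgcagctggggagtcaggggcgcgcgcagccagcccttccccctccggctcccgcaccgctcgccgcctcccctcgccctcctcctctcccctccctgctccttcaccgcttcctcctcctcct
Both strands were searched for the CCAAT box (CCAAT), the GC box (GGGCGG) and the cAMP response element (TGACGTCA). The Rab6a window holds 2 CCAAT matches, 1 on each strand, and no GC box. The Rab6b window holds 1 GC box match, on the reverse strand, and no CCAAT match, and neither holds the cAMP response element. Of 32851 mouse promoter windows of this length, 37.4% hold a CCAAT match, 35.7% a GC box match and 1.79% a cAMP response element. The GC content is 62.7% for Rab6a and 78.7% for Rab6b. These matches describe the letters, and no measurement of the study bears on binding at these promoters.

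Over the whole family 4 of the 42 members tested in CTR mice passed an adjusted p of 0.05, all of them higher in the PFC, where 6.32% of 9932 genes passed in either direction and 4.23% were higher in the PFC. In mCRS mice 2 of 41 members passed, again higher in the PFC, where 6.31% of 9452 genes passed and 4.23% were higher in the PFC. No member was called higher in the NAc, against 2.09% and 2.07% of all genes. The median member difference was -0.11 in CTR and -0.06 in mCRS mice, against 0.02 and 0.03 over all genes tested. A positive fold change was found for 16 of 42 members in CTR and 19 of 41 in mCRS mice, beside 51.1% and 51.9% of all genes tested. Of the 41 members tested in both, 19 had a negative and 12 a positive fold change in both. The regions did not separate completely for any member. Signs shared by both comparisons and complete separation were not counted over all genes.

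**Figure D2:**
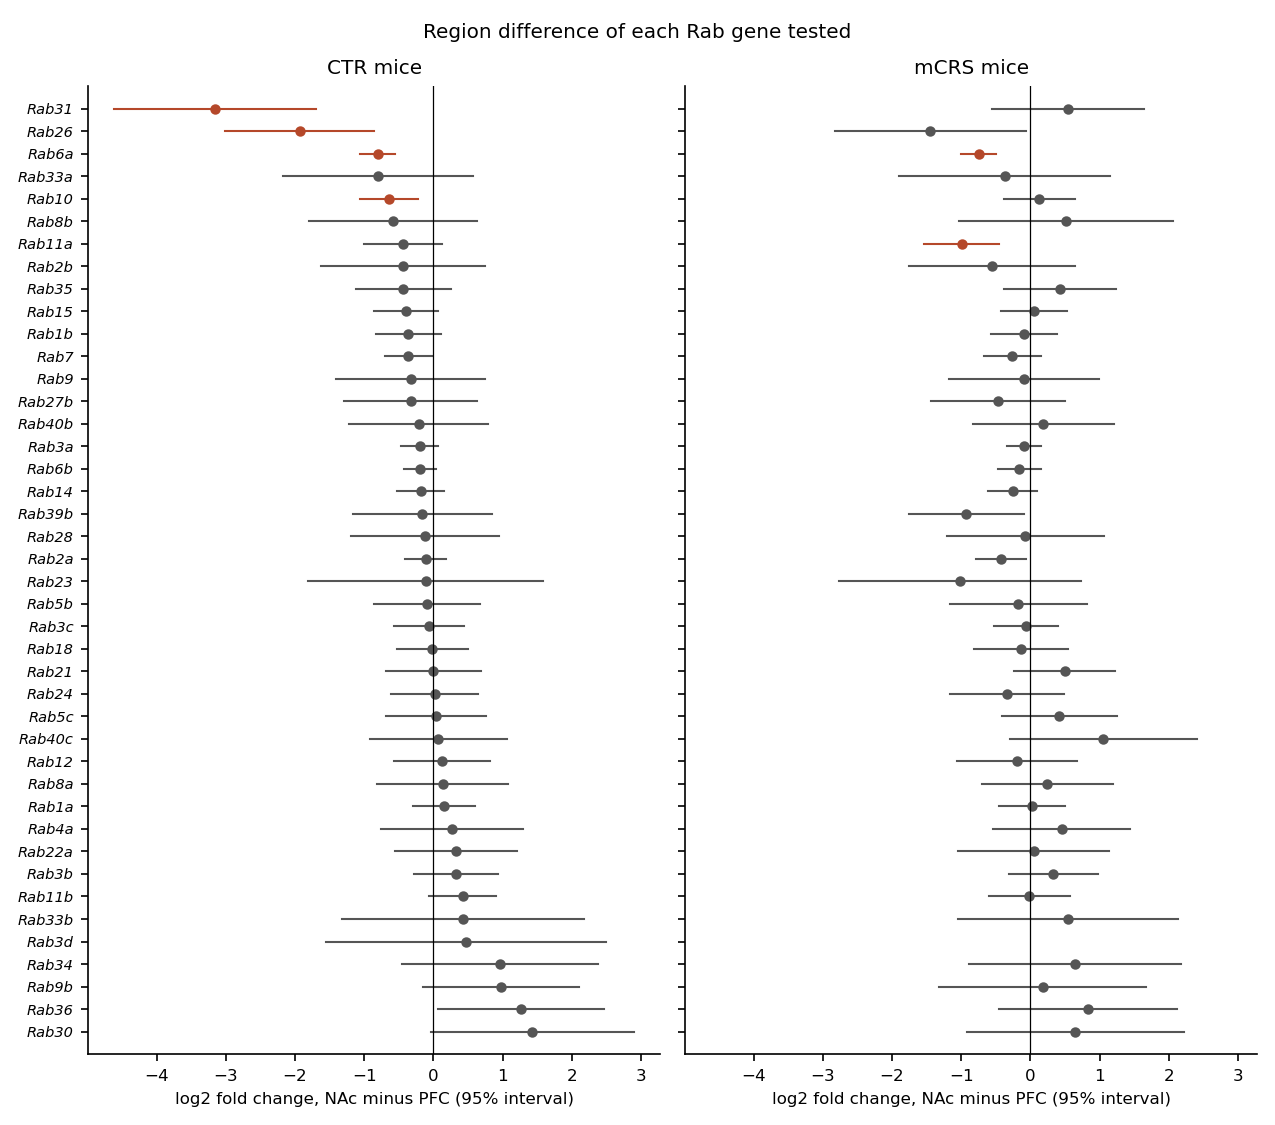
Log2 fold change NAc minus PFC (horizontal axis) with its 95% interval for each Rab gene tested in CTR mice (left, 42 genes) and mCRS mice (right, 41 genes), in the order of the CTR values. Red marks an adjusted p below 0.05, and Rab6a is the only member marked on both sides.

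Rab26, a secretory vesicle Rab that also links synaptic vesicles to autophagy, was higher in the PFC of CTR mice. Its level was 0.417, 65.2 and 169 CPM (lowest, median and highest) in the PFC and 2.12, 14.2 and 60.9 CPM in the NAc. No NAc library lay above the PFC median and 9 of 15 PFC libraries lay above every NAc library, but the lowest PFC libraries were as low as the lowest of the NAc. The difference was -1.93 (SE 0.54, 95% interval -3.02 to -0.85, adjusted p = 0.0159), and it kept an adjusted p below 0.05 in all 31 fits without one library. It was -2.15 without NAc CTR library 7 and -1.95 without PFC CTR library 5. In mCRS mice the medians were 42.3 CPM in the PFC and 9.80 CPM in the NAc, and the difference of -1.45 did not pass (SE 0.69, 95% interval -2.83 to -0.07, adjusted p = 0.297), nor did the -1.39 without NAc mCRS library 10 (adjusted p = 0.349). NAc mCRS library 6 stood at 93.1 CPM, the next highest of its group at 35.8 CPM. Without library 6 the mCRS difference was -1.88 (SE 0.70, adjusted p = 0.117). The size of the region difference was not shown to differ between CTR and mCRS mice, with an interaction of 0.47 (95% interval -1.21 to 2.16, unadjusted p = 0.58). The last 1000 bases of Rab26 overlap Traf7 on the same strand, and 6.23% of its 70-base windows also occur in Traf7 transcripts.

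Rab11a, which marks the recycling endosome, was higher in the PFC of mCRS mice. In these mice it ran from 98.1 through 173 to 425 CPM in the PFC and from 17.8 through 116 to 288 CPM in the NAc, and only 2 of 16 NAc libraries lay above the PFC median. The difference was -0.99 (SE 0.27, 95% interval -1.54 to -0.45, adjusted p = 0.0135), and it passed in all 31 fits without one library. It was -1.14 without NAc mCRS library 10. In CTR mice the medians were 172 CPM in the PFC and 147 CPM in the NAc, with a difference of -0.44 (SE 0.28, 95% interval -1.01 to 0.12, adjusted p = 0.532). The interaction, -0.56, was not past the test (95% interval -1.36 to 0.24, unadjusted p = 0.168), and it was -0.70 without NAc mCRS library 10. Rab11b, its close paralog, gave 0.42 in CTR mice (SE 0.24, adjusted p = 0.46), and 12.6% of the windows of its 3' end also occur in other genes.

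Rab10, which acts in exocytic and endosomal recycling traffic, passed narrowly in CTR mice. Its level was 100, 198 and 367 CPM in the PFC and 74.7, 132 and 253 CPM in the NAc, and 1 of 16 NAc libraries lay above the PFC median. The difference was -0.64 (SE 0.21, 95% interval -1.06 to -0.22, adjusted p = 0.0499). The adjusted p stayed below 0.05 in only 9 of 31 fits without one library, with values from 0.0188 to 0.128. The difference was -0.54 without PFC CTR library 5, which gave the highest adjusted p, and -0.64 without NAc CTR library 7 (adjusted p = 0.0539). In mCRS mice the order of the medians was the reverse, 139 CPM in the PFC and 176 CPM in the NAc, and the difference of 0.13 did not pass (SE 0.26, adjusted p = 0.917). An antisense gene, Rab10os, overlaps the last 1000 bases of Rab10, and the strand setting of the counting is not given in the sources used here, so reads of the pair may not be told apart.

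**Figure D3:**
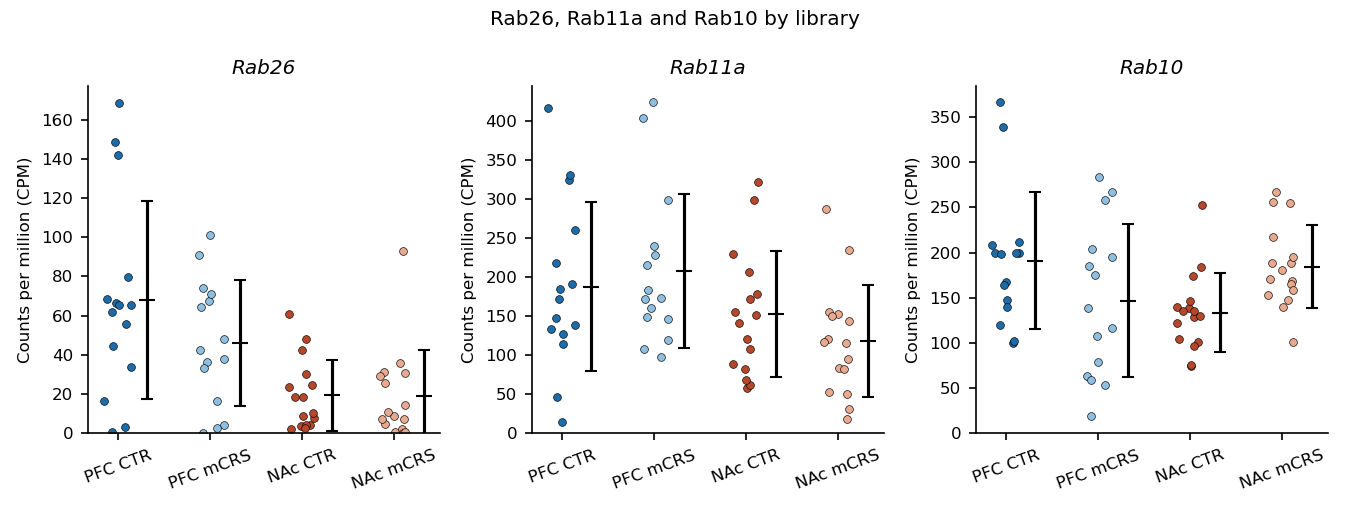
CPM (vertical axis, linear, from 0) of Rab26, Rab11a and Rab10 in every library (points) of the 4 groups on the horizontal axis, with group mean and SD as the black bar. In CTR mice 9 of 15 PFC libraries lie above every NAc library for Rab26, against 3 for Rab11a and 2 for Rab10.

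The fourth call in CTR mice was Rab31, an endosomal Rab related to Rab22a, and it came from 1 library (ENSMUSG00000056515, chromosome 17, 65651729 to 65772752, minus strand). PFC CTR library 5 held 8156 of the 9361 Rab31 counts of its group, or 87.1%, and stood at 5241 CPM. The other 14 PFC CTR libraries ran from 0.504 to 107 CPM and the group median was 30.01 CPM, close to the 30.5 CPM of PFC mCRS and below the 41.5 and 41.8 CPM of NAc CTR and NAc mCRS. With all libraries the difference NAc minus PFC was -3.15 (SE 0.73, adjusted p = 0.00211), and without library 5 it was 0.40 (SE 0.55, adjusted p = 0.873). Without NAc CTR library 7 it was -3.10 (SE 0.74, adjusted p = 0.00336). In mCRS mice it was 0.54 (SE 0.55, 95% interval -0.56 to 1.64, adjusted p = 0.775). No other gene shares a 70-base window with the 3' end of Rab31.

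The same library set the stress result of Rab31. The difference mCRS minus CTR in the PFC was -3.73 (SE 0.77, unadjusted p = 1.14e-05, adjusted p = 0.102), and without library 5 it was -0.20 (SE 0.65, adjusted p = 1). Leaving out PFC CTR library 1, 10, 11 or 14 instead brought the adjusted p to between 0.0219 and 0.0469, so that 1 member was then called. In the NAc the Rab31 difference was -0.06 (SE 0.46, unadjusted p = 0.899). Library 5 also raised the Rab share of all counts, which reached 1.06% in that library, against 0.521% to 0.692% in PFC CTR libraries once Rab31 was left out of the sum.

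**Figure D4:**
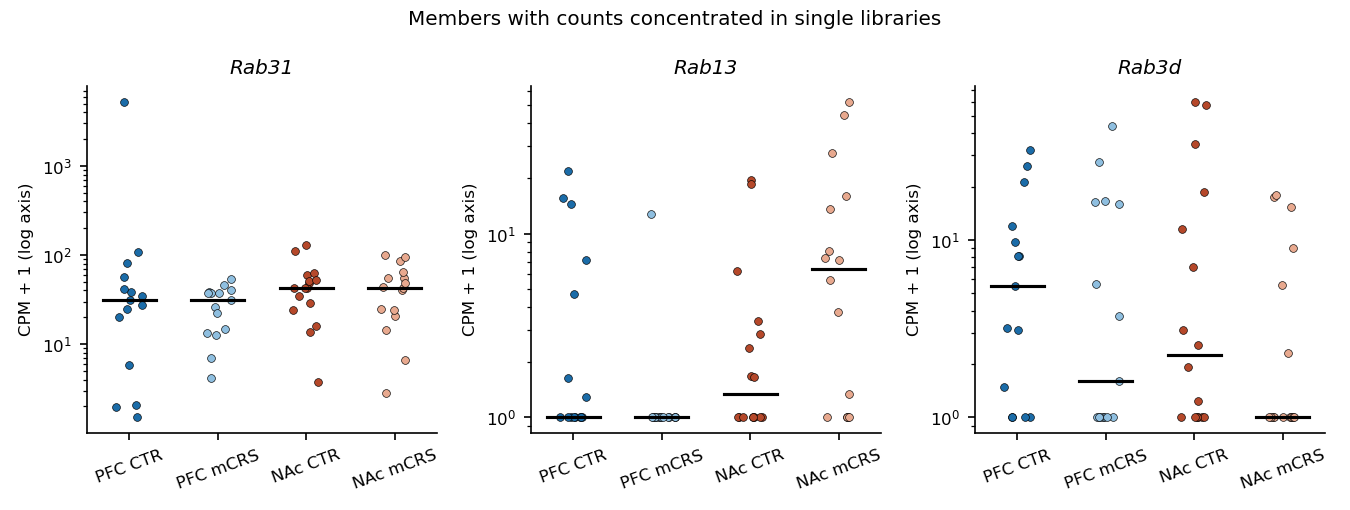
CPM + 1 on a log axis for Rab31, Rab13 and Rab3d in every library (points) of the 4 groups, with the group median as the black line. For Rab31, 1 PFC CTR library stands at 5241 CPM and all others at or below 129 CPM, while Rab13 and Rab3d are at 0 in many libraries.

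Single libraries were checked for every member and group. In 11 cases a library held over 30% of the counts of its group as deposited, a share that also depends on the depth of that library, 5 in PFC CTR and 2 in each of the other groups, among 43 members in each. Across all genes the PFC shares of such cases were 19.2% with CTR and 26.3% with mCRS mice, and the NAc shares 9.04% and 11.5%. Of the members 11.6% were such cases in PFC CTR and 4.65% in each of the other groups. The cases fell on 6 members. Rab31 aside, they were Rab13 in all 4 groups, Rab3d in 3, and Rab22a, Rab23 and Rab33b in 1 each. Rab13, known from tight junction traffic, had 26 counts in PFC mCRS, all in library 2. Its PFC CTR group had 182 counts, and the NAc groups 150 (CTR) and 512 (mCRS). Rab22a, an early endosome Rab, reached 31.0% in PFC mCRS library 4. Rab23, which acts in cilia, reached 31.8% in PFC CTR library 9, and Rab33b, a Golgi Rab tied to autophagy, 31.4% in PFC CTR library 3. Once the counts were scaled to library size by TMM there were 10 cases, 2 in PFC CTR and 5 in PFC mCRS, and 2 and 1 in the NAc, so the PFC group with more of them depended on the scaling. Of all genes 19.5% and 26.9% were then such cases in the PFC groups, and 11.5% and 13.6% in the NAc groups. The largest scaled shares of Rab22a in PFC mCRS (20.4%) and of Rab23 (29.0%) and Rab33b (24.3%) in PFC CTR were below 30%. In PFC mCRS Rab13 (100%), Rab33b (41.9%), Rab3d (35.5%), Rab30 (32.1%) and Rab34 (31.3%) were above it, and in NAc mCRS Rab26 (30.6%, in library 6). The other scaled cases were Rab31 (92.0%) and Rab13 (34.3%) in PFC CTR, and Rab13 (39.6%) and Rab3d in NAc CTR. A single copied molecule and many molecules cannot be told apart here, because no molecular identifiers were described for these counts.

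The synaptic vesicle Rabs of the Rab3 family showed no called region difference. Rab3a, the main Rab of synaptic vesicle docking, ran from 353 through 827 to 1044 CPM in PFC CTR and from 351 through 677 to 967 CPM in NAc CTR. In mCRS mice it ran from 447 through 698 to 905 CPM in the PFC and from 587 through 690 to 1022 CPM in the NAc. The groups overlapped over nearly their whole range. The NAc minus PFC difference was -0.20 in CTR mice (SE 0.13, 95% interval -0.47 to 0.07, adjusted p = 0.566) and -0.09 in mCRS mice (SE 0.12, 95% interval -0.33 to 0.15, adjusted p = 0.848). Its 3' end overlaps the antisense gene Mpv17l2.

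Its paralogs Rab3b and Rab3c, which share work at the vesicle with Rab3a, did not pass either. Rab3b had PFC medians of 88.7 CPM (CTR) and 106 CPM (mCRS) and NAc medians of 115 and 138 CPM, and region differences of 0.33 in both CTR mice (SE 0.30) and mCRS mice (SE 0.32). Rab3c had medians of 149, 138, 133 and 170 CPM in the same order, and differences of -0.06 in both (SE 0.25 and 0.23). Rab3d, the paralog best known from exocrine and endocrine cells, was tested in CTR mice only, with 0.47 (SE 1.01, 95% interval -1.55 to 2.49). The ratio of Rab3a to Rab3b was lower in the NAc of CTR mice by -0.74 (SE 0.33, permutation p = 0.0291, adjusted p = 0.256 over the 44 pair tests).

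Of the abundant transport Rabs, Rab2a, which works between the endoplasmic reticulum and the Golgi, gave -0.11 in CTR mice (SE 0.15, adjusted p = 0.865) and -0.42 in mCRS mice (SE 0.18, adjusted p = 0.203). Rab14, which serves traffic between the Golgi and endosomes, gave -0.18 (SE 0.17, adjusted p = 0.749) and -0.25 (SE 0.18, adjusted p = 0.602). At an unadjusted p under 0.05, 6 of 42 members passed in CTR and 5 of 41 in mCRS mice, where 15% and 14.8% of all genes did. These included, chosen after their values were seen, Rab7 of late endosomes with -0.36 (SE 0.17, adjusted p = 0.281) and Rab36 with 1.26 (SE 0.60, adjusted p = 0.287) in CTR mice. The 3' end of Rab7 overlaps the antisense gene Gm5577. In mCRS mice Rab39b, which is linked to intellectual disability in people, gave -0.93 (SE 0.41, adjusted p = 0.241).

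By role, 1 of 6 secretory Rabs (Rab26), 1 of 10 of the endoplasmic reticulum and Golgi (Rab6a), 1 of 5 of early endosomes (Rab31) and 1 of 9 of recycling and exocytic traffic (Rab10) were called lower in the NAc of CTR mice, and none of 7 of late endosomes and lysosomes or of 5 others. Of all genes 6.32% were called in this comparison, 4.23% as higher in the PFC, and the Rab31 call was lost without PFC CTR library 5 (0.40, adjusted p = 0.873). The median differences were -0.13 for secretory, -0.15 for endoplasmic reticulum and Golgi and -0.00057 for early endosome Rabs. They were -0.40 for recycling, 0.13 for late endosome and -0.13 for other Rabs, beside 0.02 for all genes. In mCRS mice the calls were 1 of 10 in the endoplasmic reticulum and Golgi group (Rab6a) and 1 of 9 in the recycling group (Rab11a), where 6.31% of all genes were called and 4.23% as higher in the PFC. The mCRS medians were -0.09 for secretory, -0.15 for endoplasmic reticulum and Golgi and 0.42 for early endosome Rabs. They were 0.13 for recycling, -0.10 for late endosome and -0.07 for other Rabs, beside 0.03 for all genes.

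Chronic stress changed no Rab gene past the test in either region. In the PFC none of 41 members passed, and 0% of 8916 genes did. In the NAc none of 41 members passed, where 0.00986% of 10141 genes, 1 gene, did. DESeq2 also called no member in either region. At an unadjusted p under 0.05, 1 member passed in the PFC (Rab31, 3.5% of all genes) and 1 in the NAc (Rab10, 2.04% of all genes). The median member difference was 0.01 in the PFC and -0.03 in the NAc, beside -0.01 in both over all genes tested.

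For Rab6a, Rab3a and Rab6b, the members with the most counts, the data bound the stress effect closely. Rab6a gave 0.11 in the PFC (95% interval -0.13 to 0.36) and 0.16 in the NAc (95% interval -0.09 to 0.42). Rab3a gave -0.04 in the PFC (95% interval -0.31 to 0.22) and 0.06 in the NAc (95% interval -0.18 to 0.30), and Rab6b -0.09 (95% interval -0.37 to 0.18) and -0.07 (95% interval -0.34 to 0.21). Next in counts, Rab2a gave 0.25 in the PFC (95% interval -0.10 to 0.61) and -0.07 in the NAc (95% interval -0.36 to 0.23). Rab14 gave 0.11 in the PFC (95% interval -0.27 to 0.48) and 0.02 in the NAc (95% interval -0.29 to 0.34). The 95% interval lay within 1 log2 unit of 0 on both sides for 17 of 41 members in the PFC and 24 of 41 in the NAc. For the other members the interval did not exclude a change of that size.

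**Figure D5:**
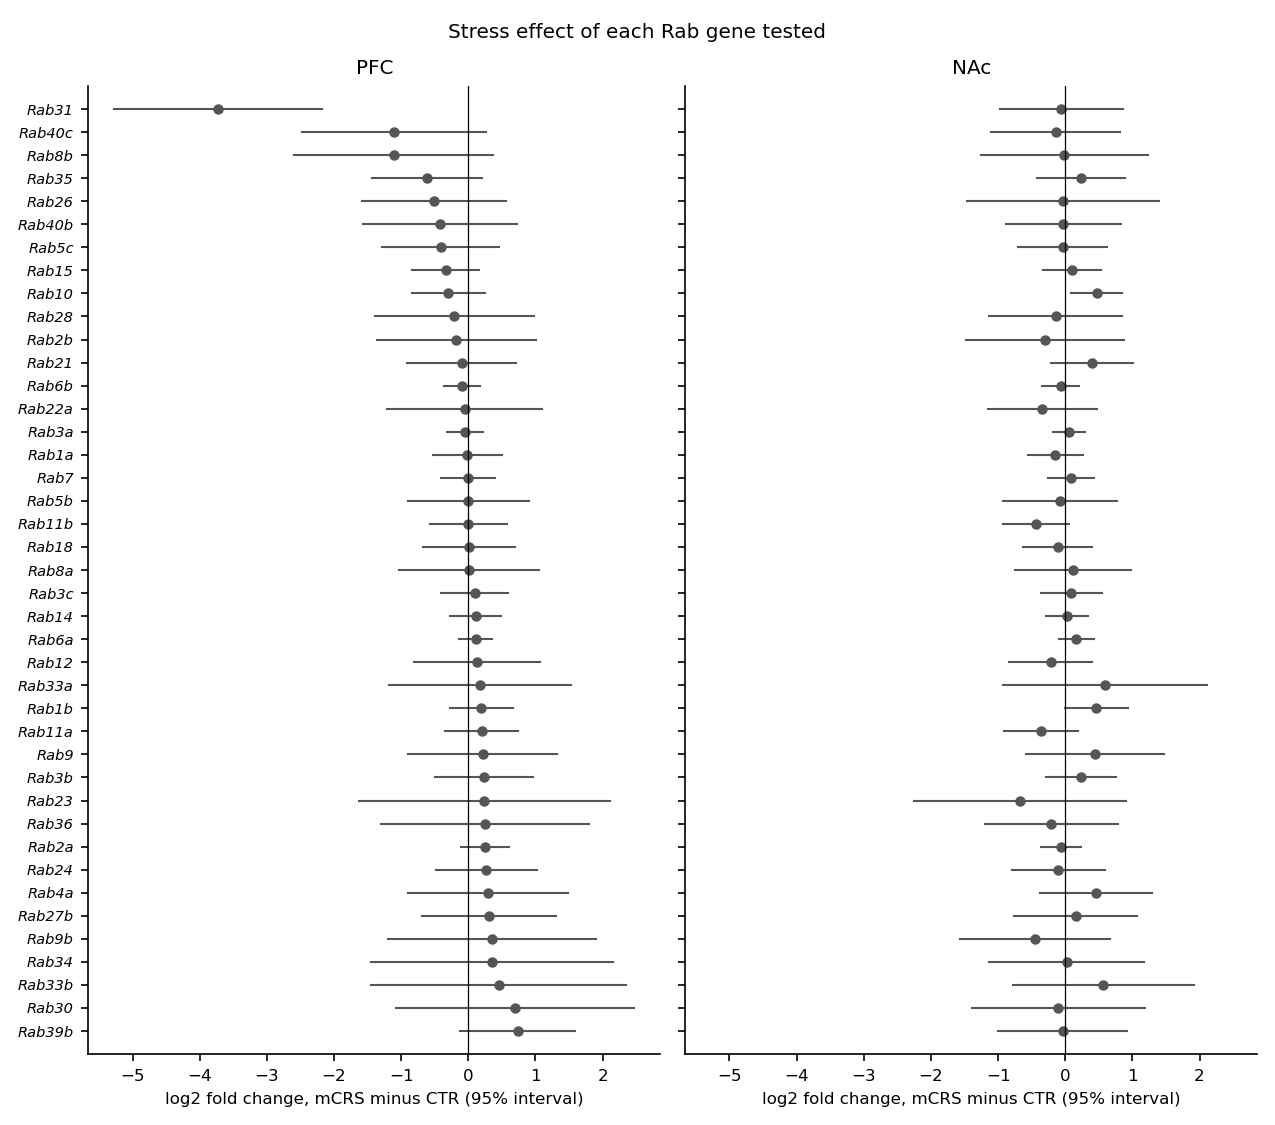
Log2 fold change mCRS minus CTR (horizontal axis) with its 95% interval for each of 41 Rab genes tested in the PFC (left) and the NAc (right), in the order of the PFC values. No member has an adjusted p below 0.05, and Rab31 in the PFC, at -3.73, rests on PFC CTR library 5.

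After Rab31, the smallest p-values in the PFC belonged to Rab39b with 0.73 (SE 0.43), Rab40c, part of a ubiquitin ligase, with -1.11 (SE 0.68), Rab35 of endocytic recycling with -0.62 (SE 0.41) and Rab8b of exocytic traffic with -1.11 (SE 0.74), with unadjusted p from 0.0919 to 0.139. The 3' end of Rab40c overlaps the antisense gene Gm26694. In the NAc Rab10 came first with 0.47 (SE 0.19, 95% interval 0.08 to 0.85, unadjusted p = 0.0179, adjusted p = 1). Its CPM ran from 74.7 through 132 to 253 in NAc CTR and from 101 through 176 to 267 in NAc mCRS, and the ranges overlapped. It was followed by Rab1b, which acts from the endoplasmic reticulum to the Golgi, with 0.47 (SE 0.23), Rab11b with -0.44 (SE 0.24), Rab21 of early endosomes with 0.40 (SE 0.30) and Rab11a with -0.36 (SE 0.28), with unadjusted p from 0.0511 to 0.2. Without NAc mCRS library 10 Rab11a was at -0.50. Rab26 gave -0.51 in the PFC (SE 0.54).

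The stress effect was compared between regions as the interaction, NAc minus PFC, over all 62 libraries. None of 43 members passed, and 0.00907% of 11025 genes, 1 gene, did. At an unadjusted p under 0.05, 3 members passed, where 3.09% of all genes did. Rab31 gave 3.70 (SE 0.87, adjusted p = 0.11), and without PFC CTR library 5 it gave 0.15 (SE 0.75). Rab13 gave 4.08 (SE 1.66, unadjusted p = 0.0162) on the counts described above, which include a group with 26 counts in a single library. Rab10 gave 0.77 (SE 0.33, 95% interval 0.12 to 1.42, unadjusted p = 0.0207, adjusted p = 1), with -0.30 in the PFC and 0.47 in the NAc, and 0.69 without PFC CTR library 5. Rab35 followed with 0.86 (SE 0.52) and Rab11a with -0.56 (SE 0.40).

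The share of all counts in Rab genes was compared without a test. In the PFC its median was 0.614% (0.521% to 1.06%) for CTR and 0.569% (0.514% to 0.73%) for mCRS mice. In the NAc the medians were 0.576% (0.481% to 0.63%) and 0.579% (0.505% to 0.631%). Without Rab31 the medians were 0.605%, 0.565%, 0.569% and 0.576%. Genes of the mitochondrial genome took a median of 11.97% of the counts in PFC CTR and 15.69% in PFC mCRS, and 10.4% and 10.3% in the NAc. Outside these genes the PFC libraries had Rab shares of 0.70% for CTR and 0.687% for mCRS mice, and the NAc libraries 0.637% and 0.655%. The Rab shares of the PFC groups thus lay closer together once the mitochondrial genes were left out of the total.

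The regulators of the Rab cycle were read beside the members. Of 7 genes for GDP dissociation inhibitors and prenylation, which keep Rabs soluble and add their lipid, none was called in either region comparison. Rabac1 gave -0.26 in CTR mice (SE 0.16). None of 24 exchange factors was called in CTR mice or of 25 in mCRS mice. In CTR mice Rab3ip gave -0.97 (SE 0.63), Ccz1 -0.75 (SE 0.54), Dennd5a 0.50 (SE 0.22) and Mon1a 1.64 (SE 0.75). Of 28 GTPase-activating proteins none was called in CTR mice, where Rabgap1l gave -0.83 (SE 0.29, adjusted p = 0.0736), Tbc1d14 -1.79 (SE 0.63, adjusted p = 0.0827), Tbc1d16 1.44 (SE 0.64) and Sgsm1 0.50 (SE 0.35). In mCRS mice 1 of 26 was called, Rabgap1l, lower in the NAc with -1.57 (SE 0.31, adjusted p = 0.000297), where 4.23% of all genes were higher in the PFC.

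Among 29 effectors 3 were called in CTR mice, all higher in the PFC, beside 4.23% of all genes. Rph3a, an effector of Rab3 and Rab27 on synaptic vesicles, gave -0.95 (SE 0.19, adjusted p = 0.000278). Sytl2, which binds Rab27, gave -1.66 (SE 0.40, adjusted p = 0.00346), and Rims1, the active zone scaffold that binds Rab3, gave -0.89 (SE 0.26, adjusted p = 0.0203). On the other side Rufy3 gave 0.48 (SE 0.18, adjusted p = 0.126) and Rims2 0.51 (SE 0.24, adjusted p = 0.279). In mCRS mice none of 28 effectors was called, and Rph3a, Sytl2 and Rims1 gave -0.33 (SE 0.20), -0.83 (SE 0.50) and -0.85 (SE 0.29). Stress called none of these regulators in the PFC or the NAc.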

How the data were processed

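BRB-seq libraries of the PFC and NAc were analysed from the deposited counts per gene. According to the study's methods the authors mapped reads with STAR to GRCm38, counted uniquely mapped reads with HTSeq and left out PFC samples of poor sequencing quality. The HTSeq version is given as 0.9.1 in the submitters' processing notes and as another version in the study's methods. The counts deposited by the authors are unnormalized whole numbers for 62 libraries, with 945286 to 4857359 counts per library, and their number limits the precision at thinly counted genes. No molecular identifiers were described, so intervals cover the spread between libraries but not copies made by amplification. All libraries were mapped to groups by their titles.

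Ensembl identifiers were named from GENCODE M21, which gave names to 11120 of 11121 genes. Each comparison was fitted over all genes by the quasi-likelihood method of edgeR 4.0.16 in R 4.3.3 after TMM scaling and filterByExpr, with Benjamini-Hochberg adjustment and a threshold of 0.05. Libraries of the 2 groups compared entered each fit, and all 4 groups entered the interaction. The fits were tested on simulated data. CPM are counts scaled to a common total per library. Paralog ratios used log2 with a pseudocount of 1 and two-sided permutation tests. Copies of 3' ends were searched as 70-base windows in the last 1000 bases of transcripts. P-values measure the spread between libraries, taken as independent.

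The members, gene lists and comparisons were chosen with earlier results of these data known. Named genes were, in each region comparison, the 8 smallest p in each direction among those called, in each stress comparison and the interaction the 5 smallest p, the 5 members with the most counts, the Rab3 paralogs, Rab31, members with over 30% of a group's counts in 1 library, and the 2 smallest p in each direction of each regulator list. A regulator gene that this rule names is not reported here. The alternatives were DESeq2 1.42.0, RLE normalization, other count filters, covariates for the share of genes detected and for position in the sample list, a replicate block, all 62 libraries in one fit and each library left out, and, added after seeing the data, a robust spread, the interaction without PFC CTR library 5 and the share without Rab31. Promoters came from RefSeq (GRCm38.p6).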

Additional observations from a re-analysis of the deposited data

How the results depend on the processing

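Rab6a in both region comparisons and Rab11a in mCRS mice passed under every alternative, with log2 differences NAc minus PFC, apart from fits without one library, of -0.82 to -0.76, -0.83 to -0.69 and -1.20 to -0.94. The number of members called between regions in CTR mice stayed at 4 only with the other count filters. It fell to 2 with position in the sample list as a covariate and to 1 with the replicate block. Under the remaining settings Rab10 or Rab31 lost its call. Without one library the number lay between 2 and 4, the 2 being without PFC CTR library 5, and Rab10 passed in only 9 of 31 such fits. Same-numbered PFC and NAc libraries deviated together with r over 0.1 in 0 of 15 pairs in CTR and 1 of 15 in mCRS mice. Between CTR and mCRS libraries, which came from different mice, 2 of 15 pairs in the PFC and 4 of 16 in the NAc did so. In any comparison at most 3 correlated best with their own number. The 2 regions of a mouse need not deviate together, so this cannot tell whether the numbers pair libraries by mouse. With the block the median of all genes between regions in mCRS mice was 0.23, against 0.03 without it, and Rab26 in CTR mice was at -2.20 (adjusted p = 0.0674). Rab26 in CTR mice passed under all other settings. Rab10 in CTR mice lost its call under RLE normalization (-0.60), the list covariate (-0.61), the block (-0.62), the robust spread (-0.64) and all libraries in one fit (-0.63).

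Rab31 in CTR mice turned to 0.45 with DESeq2, which replaces outlying counts in groups of this size, to 0.27 with the block and to 0.40 without PFC CTR library 5, the range without one library being -3.34 to 0.40. Rab31 also lost this call with the covariates for genes detected (-2.44, adjusted p = 0.213) and for list position (-1.83, adjusted p = 0.319). In the PFC the stress comparison called 1 member, Rab31, without a filter on low counts and with all 62 libraries in one fit, and between 0 and 1 without one library. Values near 0 changed sign: Rab3c between regions ran from -0.23 to 0.0099 without one CTR library (positive without PFC CTR library 5 or 15) and from -0.13 to 0.072 without one mCRS library (positive without PFC mCRS library 8 or 9), and with a covariate for genes detected Rab3a and Rab6b under stress in the PFC came to 0.015 and 0.011. Leaving mitochondrial genes out of the total can only raise the Rab share. The share moved by more than 1 SD to 0.637% in NAc CTR, 0.655% in NAc mCRS and 0.687% in PFC mCRS. In PFC CTR it rose from 0.614% to 0.70%, less than the SD of 0.126% of that group, which includes library 5. Uncalled values moved too: under stress in the PFC Rab35 came to -0.26 and Rab6a to 0.24 with a covariate for genes detected, and Rab8b to -2.0 and Rab39b to 1.12 with the block, where the Rab13 interaction was 6.26. The stress effect in the NAc and the interaction called 0 members under every alternative run. DESeq2 called 815, 770, 5, 0 and 1 genes in all in the 5 comparisons, region in CTR, region in mCRS, stress in PFC, stress in NAc and interaction, against 628, 596, 0, 1 and 1. Causes other than those named were not tested. Low counts, as for Rab13, limit what can be shown.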
